A study of Caenorhabditis elegans with 2 samples.

Results

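Binding of UNC-62, the worm homologue of the MEIS homeodomain proteins, was mapped by chromatin immunoprecipitation and sequencing (ChIP-seq) in second-stage (L2) larvae of Caenorhabditis elegans, and this account follows its binding around the homeobox genes that are neither Hox genes nor genes for its own TALE partners. These are the protein-coding genes named ceh- in the Ensembl annotation of WBcel235, apart from ceh-13, ceh-16, ceh-20, ceh-40 and ceh-60, with 15 further genes taken by name (unc-4, unc-30, unc-42, unc-86, mec-3, ttx-1, ttx-3, lim-4, lim-6, vab-3, vab-7, vab-15, pal-1, alr-1 and irx-1). The rule gave 73 genes of the 19973 protein-coding genes on the 6 nuclear chromosomes. It uses names alone and no measured value.

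The single group was strain OP600 at the L2 stage, mixed sex, whole animals, in 2 biological replicates from separate biosamples. The animals carry the unc-119(ed3) allele and the transgene wgIs600, in which unc-62 is fused to TY1, EGFP and FLAG tags beside unc-119 sequence, so the protein followed is the tagged one made from the transgene. Because whole larvae were used, strong binding in a few neurons and weak binding in many cells cannot be told apart. No second condition exists, so shares and medians of the homeobox genes are set beside those over all protein-coding genes or all candidates, with no test.

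Homeobox genes encode transcription factors that share a DNA-binding homeodomain. In the worm, POU, LIM and paired-type members are known above all for fixing the identity of single neuron types, often in pairs that act together and keep their own transcription on; NK and other members serve the pharynx, muscle and the embryonic body plan. MEIS proteins such as UNC-62 are known to bind DNA together with PBC and Hox homeodomain proteins, with TGACAG as the core of the MEIS site.

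Of the 73 genes, 3 had a reproducible UNC-62 peak with its summit in the gene or within 5000 bp of its ends, and at 1 of these 3, ceh-38, the peak lay at the gene's own promoter. Reproducible peaks are the authors' optimal set from an irreproducible discovery rate (IDR) procedure, 414 peaks in all. Signal below is the authors' peak value in the list made from both replicates pooled, and rank counts from 1 at the strongest of 28005 pooled candidate peaks or of the 30000 candidates of a replicate. The candidate lists also hold background peaks, and signal has a different scale in each list.

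The sequences that follow, read from the RefSeq genome sequence of WBcel235 (the same assembly as ce11), show the DNA under the highest peaks of ceh-38, the strongest in the set, and of unc-4 and vab-3, genes of well-known neuronal and head roles with intergenic summits, picked after their values were seen. Each is printed on the strand of its gene from within 100 bp of the summit, with annotated exon bases left out and capitals marking matches on either strand to TGACAG, to GAGAGA or to TGATNNAT, a pattern of PBC and Hox pairs. The first, chrII:6951456-6951525, plus strand, is the stretch before the annotated 5' end of ceh-38. The second, chrII:9901751-9901951, minus strand, lies upstream of unc-4. The third, chrX:10520241-10520441, plus strand, lies beyond the 3' end of vab-3.
ceh-38: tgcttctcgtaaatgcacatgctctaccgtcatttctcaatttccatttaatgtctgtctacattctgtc
unc-4: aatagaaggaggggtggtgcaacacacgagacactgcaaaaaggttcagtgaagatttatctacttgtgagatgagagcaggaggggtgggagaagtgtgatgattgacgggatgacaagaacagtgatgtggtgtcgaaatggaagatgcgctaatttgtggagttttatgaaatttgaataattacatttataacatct
vab-3: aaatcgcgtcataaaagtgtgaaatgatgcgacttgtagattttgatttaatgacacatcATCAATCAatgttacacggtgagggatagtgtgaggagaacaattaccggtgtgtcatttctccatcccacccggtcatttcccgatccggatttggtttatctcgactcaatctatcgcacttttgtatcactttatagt

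The unc-4 stretch held none of the 3 patterns, and the vab-3 stretch held TGATNNAT once. The TGACAG of the ceh-38 peak straddles the gene's annotated 5' end and so is outside the stretch above; it is shown here in 30 bases with TGACAG in capitals, on the strand where it reads in that direction, beside those of 4 other genes among the 8 whose highest peak held a match.
ceh-38, chrII:6951509-6951538, minus strand: caacgaattgccTGACAGaatgtagacaga
vab-7, chrIII:10916221-10916250, minus strand: gaaattttttttTGACAGtcaaaaagtggc
ceh-27, chrV:11667361-11667390, plus strand: tccggttttcatTGACAGttcagtttagtt
ceh-33 and ceh-34, chrV:5318398-5318427, minus strand: gaagcaaaaaggTGACAGaaggaagcgagt

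The ceh-38 match lay 33 bp from the summit, and those of vab-7, ceh-27 and the shared peak of ceh-33 and ceh-34 lay 63, 94 and 89 bp away. Over all candidates in the windows of the homeobox genes, 18 of 270 held TGACAG within 100 bp of the summit (6.67%, exact 95% interval 4 to 10.3), against 7.97% of all pooled candidates. TGATNNAT was in 44 of 270 (16.3%, against 16.9% of all candidates) and GAGAGA in 28 of 270 (10.4%, exact 95% interval 7 to 14.6, against 14.6%). At this width of 100 bp, the interval of each motif included the share over all candidates or, for GAGAGA, had its upper limit at that share as printed. Within 50 and 200 bp each motif was also below the share over all candidates, GAGAGA at 17.8% against 24.6% within 200 bp. Intervals are not given for those widths, and the differences were not tested. In the reproducible set GAGAGA was in 50.7% of peaks. A match is a description of the letters and does not mark a used site.

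ceh-38 encodes a homeodomain protein of the ONECUT type, which carries a CUT domain beside the homeodomain. Its peak (chromosome II 6951388 to 6951723) had a pooled signal of 65.1 and rank 52. In replicate 1 the overlapping peak had a signal of 33.9 and rank 109, and in replicate 2 a signal of 26.97 and rank 41. Both replicates therefore placed it among their 414 strongest. The summit lay 30 bp inside the gene's annotated 5' end, in the 5' UTR (ceh-38, plus strand, chromosome II 6951526 to 6955409). The other 3 candidates of its window lay beyond its 3' end, with signals from 7.80 to 12.1, all nearest to 5' ends of tra-2, a sex determination gene.

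ceh-5, an Antennapedia-class gene, had 2 reproducible peaks upstream (ceh-5, plus strand, chromosome I 9727169 to 9728034). The stronger lay 4846 bp upstream with a pooled signal of 44.1 and rank 139. In replicate 1 it had a signal of 34.2 and rank 106, and in replicate 2 a signal of 9.83 and rank 890. Its nearest 5' end was that of eat-16, a gene for an RGS protein of G protein signalling, 393 bp away. The other lay 1825 bp upstream of ceh-5, which had the nearest 5' end, with a pooled signal of 38.96 and rank 190. It had a signal of 24.6 and rank 227 in replicate 1, and a signal of 14.1 and rank 257 in replicate 2, so its ranks were close to each other. Both summits fall in introns of the gene models of ocrl-1, and the second also in one of eat-16, so the position alone does not assign them to ceh-5.

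ceh-7 had 1 reproducible peak, 3434 bp upstream, with a pooled signal of 29.8 and rank 364, near the lowest signal of the reproducible set (28.2). It had a signal of 23.4 and rank 263 in replicate 1, and a signal of 7.02 and rank 3544 in replicate 2. The summit was in the 5' UTR of the neighbouring gene cup-16, 108 bp past its 5' end (ceh-7, minus strand, chromosome II 8703315 to 8703829). Replicate 2 alone would not have placed this peak among its 414 strongest.

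The count of 3 in 73 (4.11%, exact 95% interval 0.856 to 11.5) was close to the background, since 987 of 19973 protein-coding genes (4.94%) had a reproducible peak by the same rule. When each peak counted for the gene with the nearest 5' end alone, ceh-38 and ceh-5 were left (2.74%, against 1.81% of all genes). A reproducible peak at the own promoter, from 1000 bp upstream to 200 bp downstream of an annotated 5' end of the gene, was found at ceh-38 alone (1.37%, against 1.38%). These shares are near those of all genes and give no result particular to the homeobox genes.

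**Figure D1:**
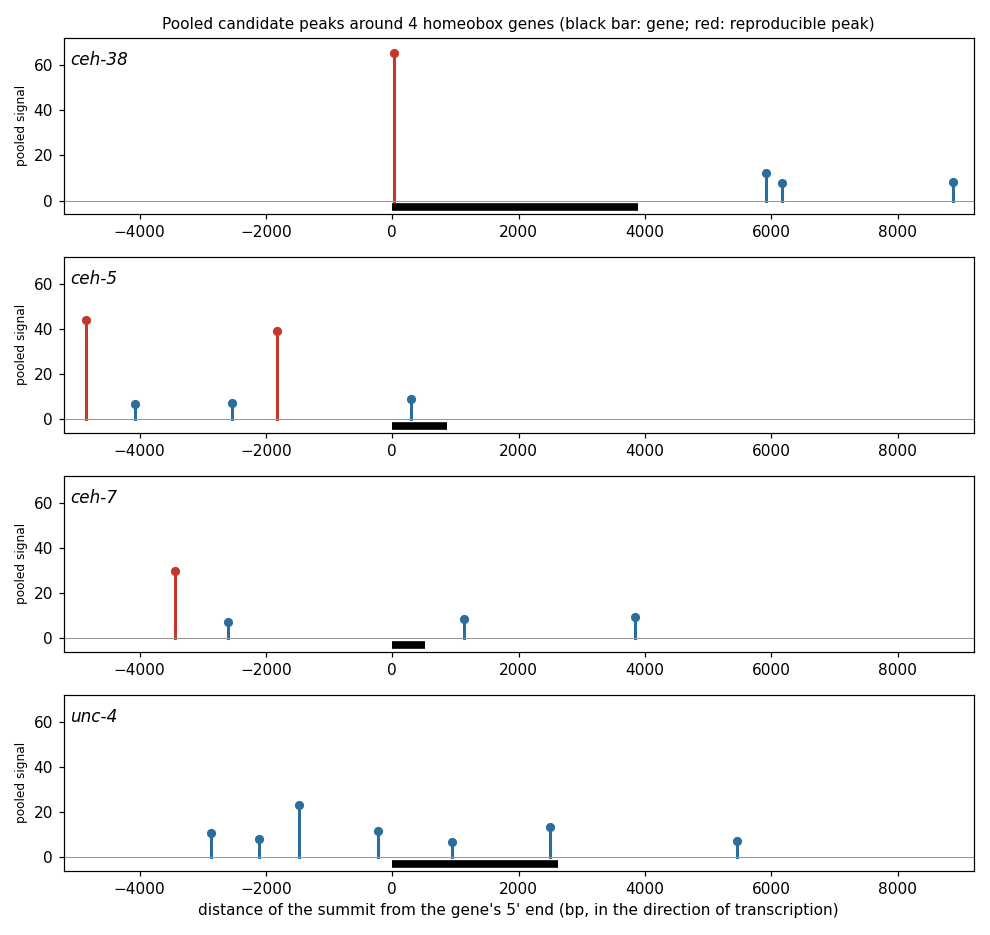
Pooled candidate peaks in the windows of ceh-38, ceh-5, ceh-7 and unc-4, by distance of the summit from the gene's 5' end in bp (horizontal) and deposited pooled signal (vertical). Red stems are reproducible peaks and blue stems other candidates, black bars are the genes. The ceh-38 peak, at 65.1, stands at the 5' end of its gene, while the reproducible peaks of ceh-5 and ceh-7 lie 1825 to 4846 bp upstream and unc-4 has none.

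Candidates of any strength were common and mostly low. At least 1 pooled candidate lay in the window of 71 genes (97.3%, against 94.9% of all genes), and ceh-74 and ceh-84 had none. Each of those 2 had 1 or 2 weak peaks in the replicate lists, the best at rank 15440 of replicate 1 and 13861 of replicate 2 for ceh-74, and 17984 and 24456 for ceh-84. The 73 windows held 290 pairs of gene and candidate, or 270 distinct candidates.

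A window held a median of 4 candidates, against 3 over all genes. The homeobox genes were longer, with a median of 3248 bp against 2027 bp, and per kilobase of window the medians were 0.284 and 0.264. The most candidates per kilobase were at unc-4 (0.554, 7 candidates), ceh-18 (0.532, 13 candidates) and ceh-36 (0.525, 7 candidates), which encodes an OTX-type factor of chemosensory neurons.

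The highest pooled signal of a gene had a median of 11.3 over the 71 genes, against 11.8 over all genes with a candidate. The quartiles of the homeobox genes were 9.496 and 14.3, against 9.78 and 15.05 for all genes. Above the all-gene median lay 33 of the 71 (46.5%, against 50% of all genes with a candidate, as a median sets). The highest peak was within rank 2000 at 10 of 73 genes (13.7%, exact 95% interval 6.77 to 23.8, against 20.5% of all genes) and within rank 5000 at 30 (41.1%, against 42.9%). Both intervals include the share over all genes.

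**Figure D2:**
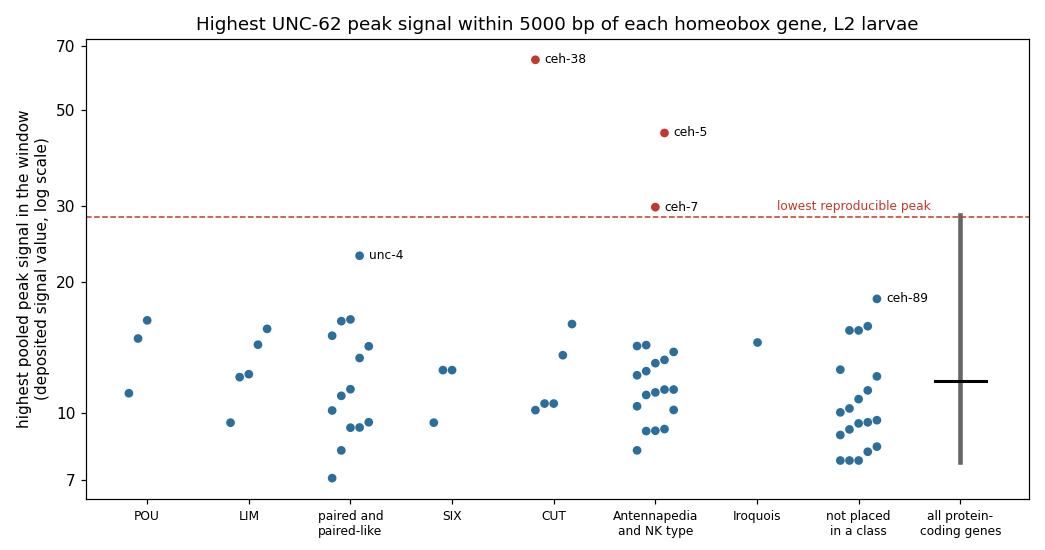
Highest pooled peak signal within 5000 bp of each of 71 homeobox genes (1 point per gene, deposited signal value on a log scale), by homeobox class. Red points have a reproducible peak, the dashed line is the lowest signal of the reproducible set (28.2), and at the right the bar spans the 5th to 95th percentile of all protein-coding genes with their median at 11.8. Most points lie between 7 and 17, and ceh-38, ceh-5 and ceh-7 stand above the line.

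Among genes without a reproducible peak, unc-4 had the highest signal. It encodes a paired-type protein that sets the synaptic inputs of a class of ventral cord motor neurons. The peak lay in intergenic sequence 1475 bp upstream of unc-4, with a pooled signal of 23.01 and rank 664, and its sequence is given above. The replicates differed: the overlapping peak had a signal of 12.5 and rank 376 in replicate 2, but a signal of 6.96 and rank 10533 in replicate 1. It is among the 414 strongest peaks of replicate 2 and was not in the reproducible set. A further 6 candidates of unc-4 had pooled signals from 6.86 to 13.6.

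Of the other paired-type genes, ceh-17, a PHOX2-type gene of the ALA neuron, had a signal of 16.4 with rank 818 in replicate 1 and no counterpart in replicate 2; that summit was 34 bp past the 5' end of pqn-24. unc-42, which fixes the identity of command interneurons, had a summit in its own coding exon with a signal of 16.3 and ranks 2468 and 6960. vab-3, the worm Pax6 gene, which acts in head development, had a pooled signal of 15.05, with 11.9 and rank 1654 in replicate 1 and 7.49 and rank 2735 in replicate 2. These were among the more even pairs of ranks, although the vab-3 summit lay 761 bp past the 3' end. The 5' end nearest to that summit was that of F14F3.4, 1072 bp away. unc-30, which fixes the identity of GABAergic motor neurons, had a summit 3 bp from an annotated 5' end with a signal of 14.2 and ranks 6077 and 8317. alr-1, an aristaless-type gene, had its highest peak in its 3' UTR (signal 13.4) at rank 880 in replicate 2 and 26678 in replicate 1, so here too 1 replicate carried the peak. The 14 genes of this class had a median highest signal of 11.1, with 6 above the all-gene median, and the lowest was ceh-45, a goosecoid-type gene, at 7.07. ttx-1, which fixes the identity of the AFD thermosensory neuron, had 9.51, and the OTX-type genes ceh-36 and ceh-37 had 9.24 and 8.19. No gene of this class had a reproducible peak.

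The POU genes had signals from 11.1 to 16.3. unc-86, which acts in touch receptor and many other neurons, had a summit 2516 bp upstream, inside an intron of C30A5.16, with a signal of 16.3. That peak ranked 1014 in replicate 1 and had no counterpart in replicate 2. ceh-18, known from the oocyte and gonadal sheath, had a signal of 14.8 with ranks 14258 and 835. That summit lay 3936 bp past its 3' end, nearest to the 5' end of ttr-48. ceh-6, which acts in the excretory cell, had 11.1. No POU peak thus ranked within 2000 in both replicates.

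Among the LIM genes, mec-3, the partner of unc-86 in touch receptor neurons, had the highest signal, 15.6, in its own intron, with ranks 5705 and 4283. ttx-3, which acts with the paired-type gene ceh-10 in the AIY interneuron, had 14.3 at a summit in an intron of lact-7, and ceh-10 had 11.3. The ttx-3 peak had rank 9618 in replicate 1 and no counterpart in replicate 2. lim-4, a gene of the AWB olfactory neuron, had 12.3 at 1101 bp upstream, with rank 1638 in replicate 2 and 22185 in replicate 1. lim-6 had 12.1 at a summit 1228 bp past its 3' end and 31 bp upstream of the 5' end of pfn-3, and ceh-14 had 9.49. Of these 5 genes, 4 were above the all-gene median of 11.8, none with a reproducible peak.

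The 3 sine oculis class genes had a median of 12.5. ceh-34, which acts in pharyngeal neurons, and its neighbour ceh-33 shared their highest peak, in an intron of ceh-34, with a signal of 12.5 and ranks 9326 and 16653, and ceh-32 had 9.49. Of the other CUT genes, ceh-48, an ONECUT gene expressed across the nervous system, had 16.01 in its own intron, but ranks of 5754 and 20403. The neighbouring genes ceh-21 and ceh-41 shared a highest peak of signal 10.5, with no counterpart in replicate 1. That summit lay past the 3' ends of both genes, 80 bp upstream of the 5' end of T26C11.4. Their neighbour ceh-39 had 13.6. ceh-49 had 10.1. Of the 6 CUT genes only ceh-38 had a reproducible peak.

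The 19 Antennapedia-class genes outside the Hox cluster had a median of 11.3, and 9 were above the all-gene median. After ceh-5 and ceh-7 came vab-7, an even-skipped type gene of posterior muscle and motor neurons, with 14.3 at 4172 bp upstream and ranks 2120 and 19067. vab-15, an Msx-type gene, had 14.2 at 3278 bp upstream with rank 2589 in replicate 1 and no counterpart in replicate 2. ceh-43, a Distal-less type gene, had 13.8 at 3908 bp upstream with ranks 7033 and 11074. ceh-27, an NK gene, had 13.01 at 2367 bp upstream and ranks 3821 and 4653. That summit was 7 bp upstream of the 5' end of F46F3.3, the nearest. pal-1, the caudal gene of posterior development, had 10.1 at a summit 483 bp upstream of metl-5, and ceh-22, an NK gene of pharyngeal muscle, had 10.3. The Iroquois gene irx-1 had 14.6 with ranks 19463 and 2957, at a summit 1105 bp past its 3' end in the 5' UTR of C41G7.7. The class of irx-1 belongs to the TALE group by its homeodomain, but irx-1 is not among the partner genes left out by the rule.

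The remaining 22 ceh genes were not placed in a class here. Their median was 9.81, with 6 above the all-gene median. The highest was ceh-89, with a signal of 11.5 and rank 1875 in replicate 1, 7.39 and rank 2906 in replicate 2, and 18.3 in the pooled list, at a summit 645 bp upstream of akt-2, a kinase gene of insulin signalling. ceh-62 had 15.8 at 990 bp upstream of its own 5' end, with ranks 953 and 16740. ceh-57 and ceh-58 shared a peak of signal 15.5, with ranks 12442 and 2056.

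Replicate agreement at the highest pooled peaks was close to that over all genes. The peak overlapped a candidate of both replicates at 34 of 73 genes (46.6%, against 45.5% of all genes), of replicate 1 at 56 (76.7%, against 75.8%), of replicate 2 at 44 (60.3%, against 60.5%) and of neither at 5 (6.85%, against 4.13%). It ranked within 2000 in both replicates at ceh-38 and ceh-5 (2.74%, against 6.21% of all genes). With the strongest peak anywhere in the window taken from each replicate list by itself, 3 genes had one within rank 2000 in each (4.11%, against 9.12%), the third being alr-1, with ranks 1467 and 880. Those 2 peaks of alr-1 do not overlap. All these counts are small.

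Each replicate taken alone gave 3 of 73 genes (4.11%) with a peak among its 414 strongest. They were ceh-38, ceh-5 and ceh-7 in replicate 1 (against 4.82% of all genes) and ceh-38, ceh-5 and unc-4 in replicate 2 (against 4.81%). ceh-38 and ceh-5 thus held in each list, and ceh-7 and unc-4 in 1 list each.

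**Figure D3:**
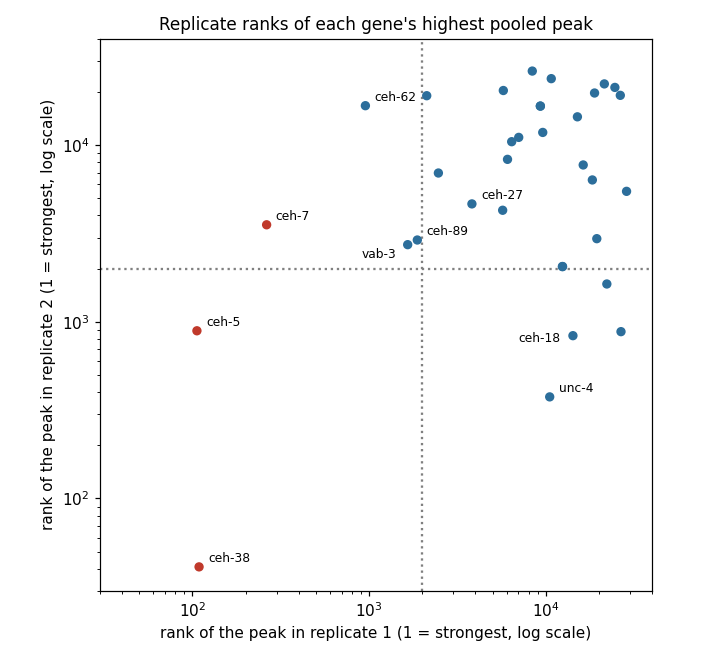
Rank of each gene's highest pooled peak in replicate 1 (horizontal) and in replicate 2 (vertical), on log scales where 1 is the strongest, for the 34 homeobox genes with a counterpart in both lists (genes that share a peak coincide). Dotted lines mark rank 2000, and red points have a reproducible peak. Of the points, ceh-38 and ceh-5 lie within rank 2000 on both axes, ceh-7, ceh-62, vab-3 and ceh-89 in replicate 1 alone, and unc-4, ceh-18, alr-1 and lim-4 in replicate 2 alone.

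By position, the 270 candidates had shares nearer to the pooled list than to its reproducible part, except for 5' UTRs. Only 4 of the 270 are reproducible peaks, so this nearness follows from what the set holds and says nothing particular to homeobox genes. Summits were intergenic in 38.1% (exact 95% interval 32.3 to 44.2, against 39.3% of all candidates and 71.7% of reproducible peaks), in introns in 32.6% (against 32.2% of all candidates), in coding exons in 20.7% (against 23.1%), in 5' UTRs in 2.96% (against 1.81%) and in 3' UTRs in 5.56% (against 3.69%). Promoter summits of any protein-coding gene made up 71 of 270 (26.3%, exact 95% interval 21.1 to 32, against 28.8%). Among the 126 candidates in a window whose nearest 5' end was that of the same homeobox gene, the promoter share was 19.05% (exact 95% interval 12.6 to 27), against 30.1% of all candidates assigned to a gene in that way. That interval lies below the share over all candidates; it counts candidates of 1 gene as independent, and the difference was not tested. GC content around the summit had a median of 35.3%, against 36.3% for all candidates.

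The nearest 5' end was the gene's own in 126 of 290 pairs of homeobox gene and candidate (43.4%, exact 95% interval 37.7 to 49.4, against 36.7% of pairs over all genes). Pairs of 1 gene are not independent, so that interval is too narrow. The highest peak was nearest to the gene's own 5' end at 31 of 71 genes (43.7%, exact 95% interval 31.9 to 56, against 34.4% of all genes with a candidate). For more than 1 in 2 of the homeobox genes the highest peak was thus nearest to another gene, as for all genes. The highest peak lay outside the gene at 58 genes (81.7%, against 82.1%) and inside at 13. A candidate at the own promoter was found at 20 of 73 (27.4%, exact 95% interval 17.6 to 39.1, against 37% of all genes).

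The 1000 bp before the gene's outermost 5' end held 11 pooled summits over the 73 genes, or 0.151 per gene (exact Poisson 95% interval 0.0752 to 0.27), against 0.317 over all genes, for which this is the fullest of the intervals plotted. In the replicate lists the gap was smaller: 0.26 per gene in replicate 1 (interval 0.157 to 0.406, against 0.341) and 0.233 in replicate 2 (interval 0.136 to 0.373, against 0.324). The intervals of both replicates include the value over all genes, so the low pooled value was not seen at that size in either list. The own promoter count was 29 of 73 in each replicate list, against 39% of all genes in replicate 1 and 37.5% in replicate 2.

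**Figure D4:**
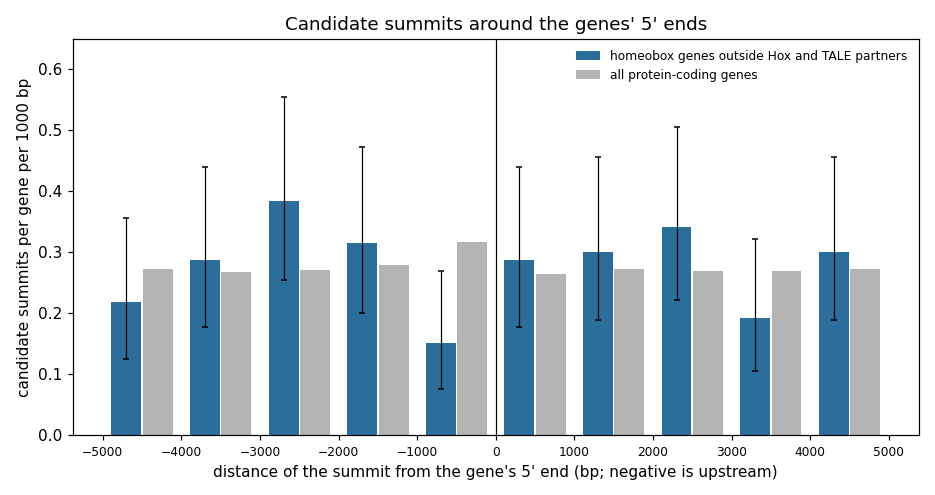
Candidate summits per gene in steps of 1000 bp from the gene's 5' end (horizontal, bp, negative upstream), for the 73 homeobox genes (blue, with exact Poisson 95% intervals that cover counting error only) and all protein-coding genes (grey), from the pooled list. The homeobox genes stand lowest in the step just upstream of the 5' end, at 0.151 against 0.317, and their other steps have intervals that include the value over all genes.

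Some genes of the set neighbour each other and share peaks, so the 73 are not 73 separate readings. In all, 16 candidates lay in the windows of more than 1 of them, in the groups ceh-57 with ceh-58, ceh-33 with ceh-34, ceh-30 with ceh-31, ceh-21 with ceh-39 and ceh-41, and ceh-81 with ceh-82 and ceh-83. The highest shared peak was that of ceh-57 and ceh-58. The BarH-type genes ceh-30 and ceh-31 shared a highest peak of signal 11.3, and the last group had 7.76. No reproducible peak was shared.

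By chromosome, 22 of the 73 genes lay on the X (30.1%, against 13.7% of all genes). Their median was 0.371 candidates per kilobase of window, against 0.322 for all X genes, while the 14 on chromosome II had 0.263 against 0.266. Their median highest signal was 11.7, against 12.9 for all X genes. None of the 22 X genes had a reproducible peak, for which the exact 95% interval reaches 15.4%, against 6.11% of all X genes. ceh-89, at 18.3, had the highest signal among them.

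A further 16 homeobox genes outside the rule, such as cog-1, lin-11, zag-1 and ceh-16, had no reproducible peak, against 4.94% of all genes. With 16 genes, a count of none is little removed from that share. Their median highest signal was 13.8, and 13 of the 16 were above the all-gene median. The highest, unc-39, a sine oculis class gene, had 22.1 with ranks 604 and 359, an evenness between replicates that unc-4 lacked at a similar signal. The 11 Hox and TALE partner genes left out of the set had 4 with a reproducible peak, against the same 4.94%. They were unc-62, ceh-13, ceh-20 and lin-39, of which unc-62 is itself the gene carried in the transgene. Counts on these 2 lists are given as description and no difference between them and the 73 was tested.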

How the data were processed

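All lists used are narrowPeak files. Per the accompanying notes, the authors made a candidate list from each replicate's alignment and from both pooled, each with background peaks as input for IDR, and an optimal IDR set. The authors computed the deposited signal of each peak relative to a control file that was not analysed here. The deposited −log10 q was the same, 2.40, for each of the 414 reproducible peaks, and was not used for ranking. For aligner, peak caller and IDR threshold the sources used here give nothing, and the read depth is unknown. Per the labels, libraries spanned 150 to 350 bp.

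The ce11 lists were used with Ensembl release 115 annotation of WBcel235 and the RefSeq sequence of that assembly; all ce11 peaks lay within its chromosomes. The ce10 lists were not used. Coordinates count from 1. A summit is the peak start plus its deposited offset. Peaks were ranked by signal; a counterpart is the strongest replicate peak overlapping by at least 1 bp. Both strands were searched for motifs, up to 100 bp from each summit, and own-promoter and location calls used annotated transcripts. Intervals are exact (Clopper-Pearson or Poisson, 95%) and cover counting error only. The assignment steps were tested on simulated data. Python 3.11.15, pandas 2.3.3 and scipy 1.17.1 were used.

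The genes, class lists and settings were chosen with earlier results of these data known. Genes named are those with a reproducible peak, the 12 highest by signal, the highest of each class, those ranked within 2000 in both replicates, the 3 densest in candidates, those with no candidate and those sharing peaks; others were named after their values were seen. With 1 group of 2 replicates no test was made.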

Additional observations from a re-analysis of the deposited data

How the results depend on the processing

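A fixed window around the 5' end, and the alternatives on own promoters, were added with the data in view. The 10 results were recomputed 40 times in all. Of these values, 29 stayed close to the report's (counts within 1.5 times, shares and medians inside their 95% intervals). That bound on counts is wide. It let pass 29 genes with a candidate at the own promoter in each replicate list, against 20 in the pooled list. The low pooled count was thus not seen in either replicate list. It also let pass 55 genes with a candidate by the nearest 5' end alone (63.6% of all genes), against 71 (94.9%). The count of 3 genes with a reproducible peak was 2 to 3 in every alternative run, while the share over all genes moved more. It was 2 with a window of 2000 bp (2.86% of all genes) and 3 with one of 10000 bp (8.27%). By the nearest 5' end alone it was 2 (1.81%). With either replicate left out, the 414 strongest peaks of the other list were counted instead. That gave 3 each time (4.81% and 4.82% of all genes), with unc-4 in place of ceh-7 without replicate 1. The median highest signal was 9.96 with a window of 2000 bp and 13.5 with one of 10000 bp (10.6 and 13.4 over all genes). Genes with the highest peak within rank 5000, not 2000, in both replicates numbered 6 of 73, against 10.4% of all genes. They were ceh-38, ceh-5, ceh-7, ceh-27, ceh-89 and vab-3. The promoter share was 19.05% when each candidate counted for the nearest 5' end alone (28.8% of all candidates, or 30.1% of those assigned in the same way), and 15.2% with promoters of 500 bp upstream to 100 bp downstream (17% of all candidates). Motif shares move with the bases searched: within 50 and 200 bp of the summit TGACAG had 1.85% and 13.7%, TGATNNAT 8.52% and 26.3%, and GAGAGA 5.93% and 17.8%, against 4.11% and 14.8%, 8.76% and 30.4%, and 8.01% and 24.6% of all candidates. No paired analysis was possible because the series has 1 group. With peak lists in place of reads, depth sets no limit that can be stated here.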
